A study of Mus musculus with 8 samples.

Results

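The sterol hydroxylases that start bile acid synthesis were followed in the liver of cholestatic mice given fibroblast growth factor 21. They were 7 genes taken by gene symbol from their place in the pathway, with earlier results of these data known: Cyp7a1, Cyp8b1, Cyp27a1, Cyp7b1, Cyp39a1, Cyp46a1 and Ch25h. All 7 were among the 30266 genes of the deposited table, and all 7 were among the 18315 genes with enough reads to be tested. Male mice labelled Mdr2-/- at 8 weeks of age were given either PBS or 1.0 mg/kg of recombinant FGF21, labelled rFGF21, and liver was collected 4 h later. Both groups carried the Mdr2-/- label, so there was no group labelled as wild type. Each group had 4 libraries of bulk liver RNA, and the labels do not say that each library came from its own mouse, so the p-values measure the spread between these libraries.

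Liver turns cholesterol into bile acids by adding hydroxyl groups to it, and the enzymes that add the earliest ones set how much enters the pathway and which bile acids leave it. In the classic pathway Cyp7a1, the rate-limiting enzyme, acts on cholesterol itself, and Cyp8b1 later adds the hydroxyl group that makes cholic acid. In the alternative pathway the mitochondrial enzyme Cyp27a1 hydroxylates the side chain, and Cyp7b1 then acts on the oxysterols that result. Cyp46a1, best known from neurons, and Ch25h, an inducible enzyme of macrophages and other cells, make oxysterols hydroxylated at other side-chain positions, and Cyp39a1 acts on the product of Cyp46a1. Bile acids returning to the liver repress Cyp7a1 and Cyp8b1, partly through the receptor FXR (Nr1h4) and the co-repressor SHP (Nr0b2), and partly through intestinal FGF15, which binds FGFR4 and its co-receptor beta-Klotho.

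Totals ran from 62756328 to 73313449 reads per library. Reads of Abcb4, the gene that the name Mdr2 stands for, were present in every library at 383.7 ± 36.3 CPM in the PBS and 407 ± 28.7 CPM in the rFGF21 group (SD, n = 4), where CPM is the read count scaled to library size after TMM normalization. The labels do not say which part of the gene was disrupted, so these whole-gene counts do not check the genotype. The labels' protocol text names another tissue, the retina, but the hepatocyte markers summed to 68125 to 86285 CPM in the PBS libraries and 62757 to 78722 CPM in the rFGF21 libraries, and there were 0 reads of Crx and Rcvrn, which mark photoreceptors. Library PBS 5 lay far from the other PBS libraries for Cyp8b1 and Cyp7b1. Library rFGF21 5 stood apart for 3 of 6 listed neuronal genes, with 246 of the 248 reads of Snap25, 71 of the 71 reads of Gad1 and 61 of the 76 reads of Stmn2 over the 8 libraries. Of the other neuronal genes listed, Rbfox3 and Tubb3 were also highest there, at 1.07 and 1.02 CPM. Syt1, the neuronal gene with the most reads (15446), was lowest there, at 23.1 CPM. Values without these libraries are given where they bear on a result.

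After rFGF21, Cyp7a1 and Cyp8b1 fell and Ch25h rose, while Cyp27a1, Cyp7b1, Cyp39a1 and Cyp46a1 did not pass the test. Thus 2 of the 7 genes were called lower, where 1.67% of all genes tested were, and 1 was called higher, where 1.15% were. Over both directions 2.82% of the genes tested were called, at a Benjamini-Hochberg adjusted p under 0.05 in edgeR's quasi-likelihood test. The median log2 fold change of the 7 genes was -0.38, beside a median of 0.0034 over all genes tested. These are whole-liver RNA levels, so fewer cells of a type and less RNA per cell cannot be told apart.

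**Figure D1:**
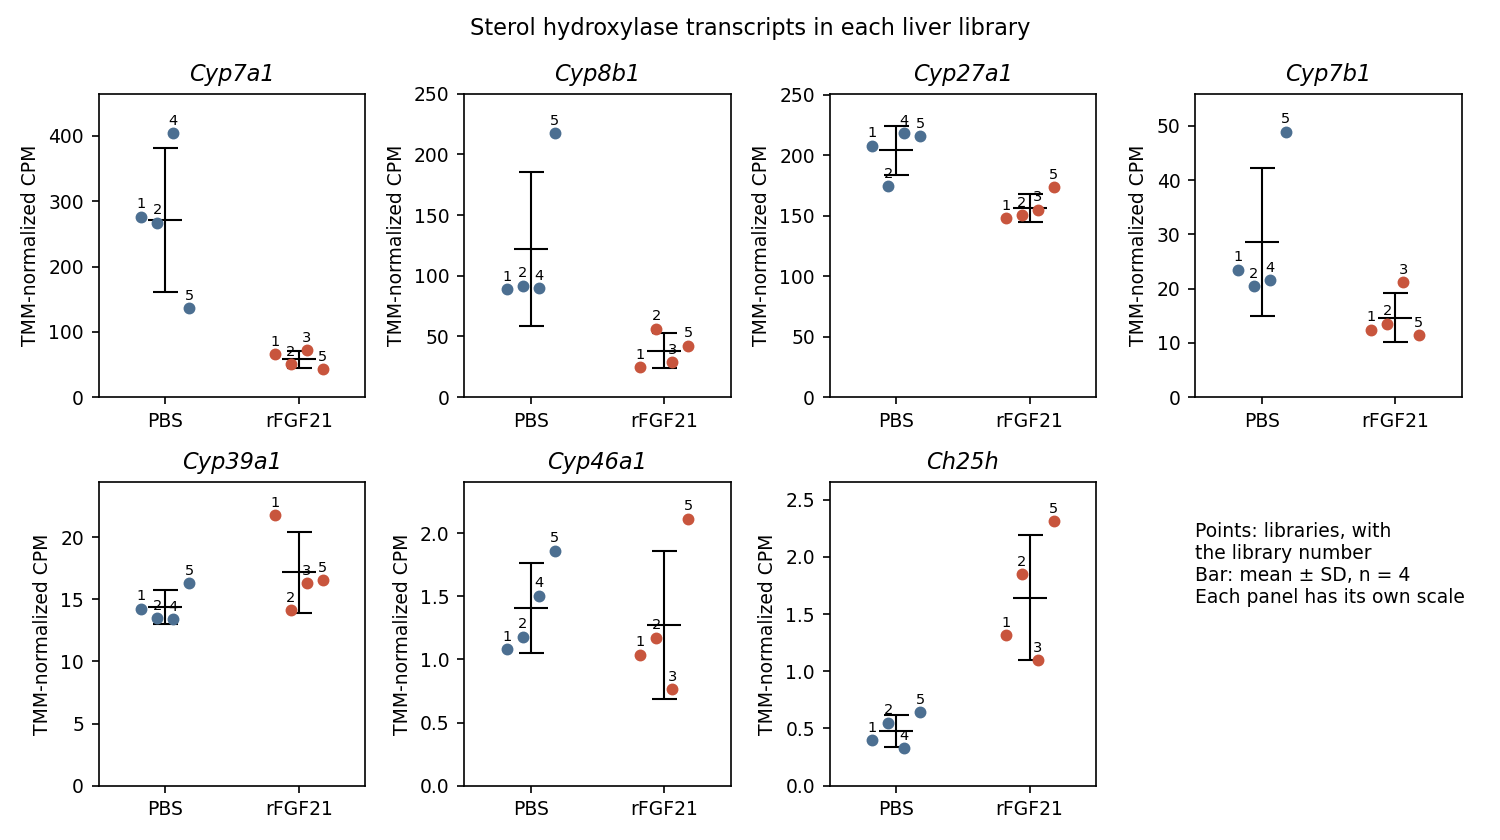
Each panel plots 1 gene on its own scale from 0: the vertical axis is TMM-normalized CPM, blue points are PBS and red points rFGF21 libraries with their numbers, and bars give the mean ± SD (n = 4). The groups are apart for Cyp7a1, Cyp8b1, Cyp27a1 and Ch25h, and PBS 5 is the high point for Cyp8b1 and Cyp7b1.

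Cyp7a1 (ENSMUSG00000028240, chr4:6265612-6275633, minus strand, 6 exons, GRCm38) had the largest change of the 7. Its level was 276.7, 267.2, 404.7 and 136.2 CPM in PBS 1, 2, 4 and 5, and 66.3, 50.1, 71.6 and 42.9 CPM in rFGF21 1, 2, 3 and 5. The lowest PBS library was above the highest rFGF21 library, although PBS 5 was well below the other PBS libraries. The mean fell from 271 ± 110 to 57.7 ± 13.4 CPM (SD, n = 4), a log2 fold change of -2.23 ± 0.29 (SE) or 4.70-fold, with an adjusted p of 0.00647 in edgeR's quasi-likelihood test. By size this was the 17th of the 306 genes called lower. Leaving out each library in turn gave log2 fold changes from -2.45 to -1.97, and the call was kept in all 8 of these fits.

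Cyp8b1 (ENSMUSG00000050445, chr9:121914356-121916305, minus strand) is a gene of 1 exon. Levels were 88.97, 91.7, 89.8 and 217.6 CPM in PBS 1, 2, 4 and 5, against 24.5, 56.4, 28.9 and 42.4 CPM in rFGF21 1, 2, 3 and 5. PBS 1, 2 and 4 lay within a narrow band, PBS 5 was far above them, and no rFGF21 library reached the lowest PBS library. The mean fell from 122 ± 63.7 to 38.0 ± 14.4 CPM (SD, n = 4), with a log2 fold change of -1.68 ± 0.34 (SE), or 3.21-fold, and an adjusted p of 0.0306 in edgeR's quasi-likelihood test. Without PBS 5 the log2 fold change was -1.24 and the adjusted p 0.0464. The call was lost without PBS 1 (adjusted p 0.0539), rFGF21 1 (0.0988), rFGF21 3 (0.0806) or rFGF21 5 (0.0764) and kept without PBS 2, PBS 4, PBS 5 or rFGF21 2, and the direction stayed the same in all 8 fits.

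Promoter sequence is shown for Cyp8b1 because it fell together with Cyp7a1, and for Ch25h because it moved the other way. The windows come from RefSeq (GRCm38.p6), which matched 4 of the 7 genes. They hold the 250 bases before the RefSeq start, except for Ch25h. Its window has 234 bases and ends where the gene begins in the deposited table, short of the RefSeq start at 34475148. Capitals mark matches to 6 letter strings searched on both strands: the HNF4 element CAAAGTCCA, the LRH-1 element CAAGGTCA, the nuclear receptor hexamer AGGTCA, the cyclic AMP element TGACGTCA, the AP-1 element TGACTCA and the TATA box TATAAA. The LRH-1 element overlaps the hexamer in its last 6 letters.
Cyp8b1, chr9:121916306-121916555, minus strand: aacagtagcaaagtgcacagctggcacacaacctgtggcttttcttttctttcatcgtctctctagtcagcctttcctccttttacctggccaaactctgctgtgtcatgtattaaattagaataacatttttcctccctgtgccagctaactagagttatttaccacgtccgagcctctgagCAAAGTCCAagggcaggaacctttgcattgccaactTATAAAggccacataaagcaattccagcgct
Ch25h, chr19:34475165-34475398, minus strand: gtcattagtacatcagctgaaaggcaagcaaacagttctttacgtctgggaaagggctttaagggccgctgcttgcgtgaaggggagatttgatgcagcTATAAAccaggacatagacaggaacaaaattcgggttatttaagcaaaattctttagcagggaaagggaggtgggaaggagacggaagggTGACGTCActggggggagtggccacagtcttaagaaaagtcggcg

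In the Cyp8b1 window the HNF4 string began 67 bases before the RefSeq start and was found in 0.387% of the 32536 promoter windows of the same length, and the TATA string began 31 bases before the start and was found in 12.3% of them. The Ch25h window held the cyclic AMP string, a palindrome, 61 bases before the RefSeq start, and the TATA string 151 bases before it. Both distances include bases past the end of the printed window. The cyclic AMP string was found in 1.56% of the 250-base windows. None of the 6 strings was in the windows of Cyp27a1 or Cyp46a1. The LRH-1 string, present in 1.33% of all windows, the hexamer, present in 14.0%, and the AP-1 string, present in 4.45%, were in none of the 4 windows. A match says only that these letters are there, and no match only that the exact string is absent. Variants of the strings were not searched.

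Within each group, libraries with less Cyp7a1 tended to have more Cyp8b1. PBS 5 had the lowest Cyp7a1 and the highest Cyp8b1 of the PBS group. Among the rFGF21 libraries, numbers 2 and 5 had the lower Cyp7a1 and the higher Cyp8b1, and numbers 1 and 3 the reverse. With 4 libraries a group this is a description only. The log2 ratio of Cyp7a1 to Cyp8b1 reads averaged 1.17 ± 1.26 in PBS and 0.65 ± 0.84 in rFGF21 (SD, n = 4), a difference of -0.52 ± 0.76 (SE) with a p of 0.514 in the two-sided exact permutation test, so a difference between the falls of the classic-pathway pair was not detected.

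**Figure D2:**
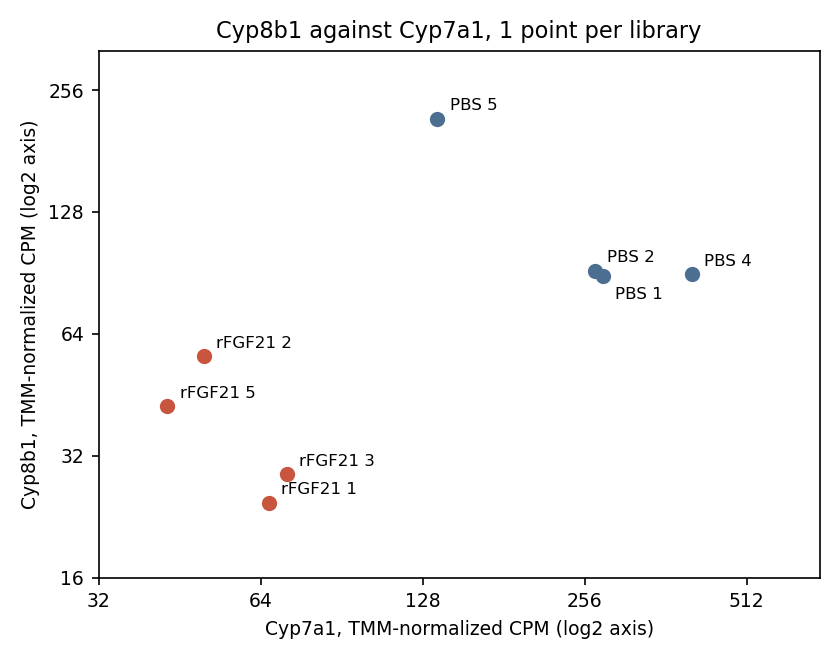
Cyp8b1 is plotted against Cyp7a1 in each of the 8 libraries, both in TMM-normalized CPM on log2 axes, with PBS in blue and rFGF21 in red. The rFGF21 points lie below and to the left of the PBS points, and PBS 5 combines the lowest Cyp7a1 of its group, 136.2 CPM, with the highest Cyp8b1, 217.6 CPM.

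In the alternative pathway, Cyp27a1 (ENSMUSG00000026170, chr1:74713574-74737892, plus strand, 9 exons) shifted little. It had 208.0, 174.2, 218.1 and 215.7 CPM in PBS 1, 2, 4 and 5, and 147.8, 150.6, 155.1 and 173.4 CPM in rFGF21 1, 2, 3 and 5. Every rFGF21 library was below every PBS library, though rFGF21 5 came within 1 CPM of PBS 2. The means were 204 ± 20.3 and 157 ± 11.5 CPM (SD, n = 4), a log2 fold change of -0.38 ± 0.10 (SE), with an adjusted p of 0.0775 in edgeR's quasi-likelihood test, so the gene was not called. DESeq2 gave an adjusted p of 0.00847.

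Cyp7b1 (ENSMUSG00000039519, chr3:18071950-18243338, minus strand, 6 exons) was at 23.5, 20.5, 21.6 and 48.9 CPM in PBS 1, 2, 4 and 5, and at 12.4, 13.5, 21.2 and 11.4 CPM in rFGF21 1, 2, 3 and 5. The groups overlapped, since rFGF21 3 exceeded PBS 2, and PBS 5 was again far above its group. The means were 28.6 ± 13.6 and 14.6 ± 4.49 CPM (SD, n = 4), a log2 fold change of -0.97 ± 0.29 (SE), with an adjusted p of 0.111 in edgeR's quasi-likelihood test and 0.0108 in DESeq2. Without PBS 5 the log2 fold change was -0.57 and edgeR's adjusted p 0.193. The library with the most Cyp7b1 in the PBS group was thus also the library with the most Cyp8b1, which did not hold in the rFGF21 group, where rFGF21 3 had the most Cyp7b1 and rFGF21 2 the most Cyp8b1.

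Ch25h (ENSMUSG00000050370, chr19:34473778-34475164, minus strand, 1 exon), cholesterol 25-hydroxylase, was the only one of the 7 genes called higher, and the only one whose annotation does not list heme binding. It had 28, 35, 19 and 44 reads in PBS 1, 2, 4 and 5, and 99, 131, 80 and 175 reads in rFGF21 1, 2, 3 and 5. The lowest rFGF21 library had more reads than the highest PBS library, and the counts were small in both groups. In CPM the mean rose from 0.478 ± 0.143 to 1.64 ± 0.547 (SD, n = 4), a log2 fold change of 1.78 ± 0.34 (SE) or 3.42-fold, with an adjusted p of 0.0251 in edgeR's quasi-likelihood test, the 11th largest of the 210 increases. The call was lost without PBS 1 (adjusted p 0.0726), rFGF21 1 (0.0581), rFGF21 2 (0.0613) or rFGF21 5 (0.0754), while the log2 fold change stayed between 1.57 and 1.96. The long noncoding RNA Gm26902 overlaps Ch25h on the other strand and had 0 to 14 reads per library, and no source used here says whether counting used strand.

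Ch25h is known from macrophages and other immune cells, whose markers were therefore examined in the same libraries. The monocyte and neutrophil markers summed to 30.6 to 43.8 CPM in PBS and 46.6 to 74.6 CPM in rFGF21, without overlap. Ccr2 alone gave a mean of 22.2 of 39.9 CPM in PBS and 36.6 of 61.5 CPM in rFGF21. Singly, the groups did not overlap for 2 of the 8 tested of 9 listed, Ccr2 and Cxcr2, where 12.3% of all genes did not. EdgeR called 0 of the 8, and 3 were higher at an unadjusted p under 0.05, where 1634 of all 18315 genes were. DESeq2 called 1 higher, where it called 703 of the 18315 higher. The neutrophil gene Ly6g was not among those tested. Of the 11 Kupffer cell and macrophage markers 0 were called by edgeR or DESeq2. At an unadjusted p under 0.05 in edgeR 1 of the 11 was lower, where 9.86% of all genes were. The median log2 fold change of the 11 was -0.24. Their sum ran from 1093 to 1670 CPM in PBS and from 1075 to 1410 CPM in rFGF21. The 9 sinusoidal endothelial markers also gave 0 calls with either tool and 0 at an unadjusted p under 0.05, with sums of 179 to 322 and 199 to 297 CPM. The part of these cell types in the Ch25h result was not tested.

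Cyp39a1 (ENSMUSG00000023963, chr17:43667425-43751431, plus strand, 12 exons), the oxysterol hydroxylase after Cyp46a1, was at 14.2, 13.5, 13.4 and 16.3 CPM in PBS 1, 2, 4 and 5, and at 21.8, 14.1, 16.3 and 16.5 CPM in rFGF21 1, 2, 3 and 5. The groups overlapped and rFGF21 1 was the high library. The log2 fold change was 0.26 ± 0.14 (SE) with an adjusted p of 0.344 in edgeR's quasi-likelihood test. Cyp46a1 (ENSMUSG00000021259, chr12:108334381-108362234, plus strand, 15 exons), cholesterol 24-hydroxylase, had 56 to 160 reads per library. Its level was 1.08, 1.18, 1.505 and 1.86 CPM in PBS 1, 2, 4 and 5, and 1.04, 1.17, 0.767 and 2.12 CPM in rFGF21 1, 2, 3 and 5. The rFGF21 libraries held both the lowest and the highest of these values. The highest was rFGF21 5, the library with most reads of Snap25, Gad1 and Stmn2 but the lowest level of Syt1. Without rFGF21 5 the log2 fold change was -0.50. The part of the neuronal gene reads in the Cyp46a1 level was not tested. With all libraries the log2 fold change of -0.14 ± 0.34 (SE; adjusted p 0.868 in edgeR's quasi-likelihood test) changed sign without PBS 5 (0.032) or without rFGF21 3 (0.036).

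The groups did not overlap for 4 of the 7 genes, namely Cyp7a1, Cyp8b1 and Cyp27a1 with rFGF21 lower and Ch25h with rFGF21 higher, where 12.3% of all genes tested did not overlap in either direction. Cyp27a1 was thus separated by group without passing the adjusted threshold.

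**Figure D3:**
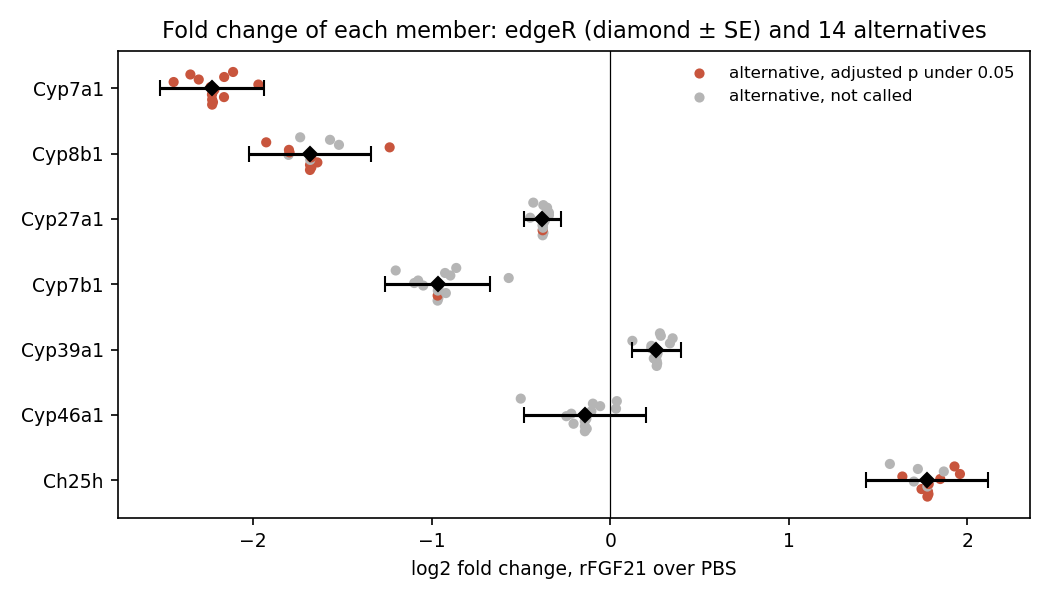
The horizontal axis is the log2 fold change of rFGF21 over PBS for each of the 7 genes: diamonds with bars are edgeR's value ± SE, and points are 14 other settings, red where the adjusted p was under 0.05. Cyp7a1 stays between -2.45 and -1.97, Ch25h between 1.57 and 1.96, and Cyp46a1 straddles 0.

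Levels of different genes were compared as CPM per kilobase (kb) of merged exons, since a longer transcript gives more reads. In the PBS group Cyp27a1 was highest at 93.9 ± 9.35 CPM per kb, ahead of Cyp7a1 in all 4 libraries although the ranges overlapped, and ahead of Cyp8b1 in all but PBS 5, where Cyp8b1 had 111.6 and Cyp27a1 99.3 CPM per kb. Cyp7a1 at 65.0 ± 26.3 and Cyp8b1 at 62.6 ± 32.7 CPM per kb had overlapping ranges. Cyp7a1 was above Cyp8b1 in 3 of the 4 libraries and below it in PBS 5, at 32.6 against 111.6 CPM per kb. Below them came Cyp7b1 at 13.2 ± 6.27 and Cyp39a1 at 4.70 ± 0.441 CPM per kb (SD, n = 4), each apart from its neighbours. Cyp46a1, at 0.428 ± 0.108 CPM per kb, and Ch25h, at 0.345 ± 0.103 CPM per kb, overlapped at the low end.

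In the rFGF21 group Cyp27a1 stayed on top at 72.1 ± 5.30 CPM per kb, now apart from every other member. Cyp8b1 at 19.5 ± 7.38 and Cyp7a1 at 13.8 ± 3.22 CPM per kb overlapped, as did Cyp7b1 at 6.76 ± 2.07 and Cyp39a1 at 5.63 ± 1.07 CPM per kb (SD, n = 4). Ch25h at 1.19 ± 0.394 CPM per kb was above Cyp46a1 at 0.387 ± 0.178 CPM per kb in all 4 libraries. Among tested genes with an annotated length, the number with a higher mean level per kb than Cyp7a1 went from 742 in PBS to 2736 in rFGF21, and for Ch25h it went from 14685 to 11426.

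Summed by pathway, the classic pair Cyp7a1 and Cyp8b1 gave 112, 111, 143 and 144 CPM per kb in PBS 1, 2, 4 and 5, and 28.4, 40.9, 31.96 and 32.03 CPM per kb in rFGF21 1, 2, 3 and 5. The sums were more even within the PBS group than their parts: the highest library was 1.30 times the lowest, compared with 2.97 times for Cyp7a1 and 2.45 times for Cyp8b1 alone. The mean sum was 128 ± 18.6 CPM per kb in PBS and 33.3 ± 5.32 CPM per kb in rFGF21 (SD, n = 4), a ratio of 3.83. The alternative pair Cyp27a1 and Cyp7b1 summed to 107 ± 13.3 and 78.9 ± 5.19 CPM per kb, a ratio of 1.36, with the lowest PBS library at 89.6 and the highest rFGF21 library at 85.0. Cyp39a1, Cyp46a1 and Ch25h together came to 5.48 ± 0.599 and 7.20 ± 1.03 CPM per kb, most of it Cyp39a1, and PBS 5 at 6.37 was level with rFGF21 2 at 6.31 and rFGF21 3 at 6.36.

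As a share of all 7 genes per library, the classic pair held 50.01% to 55.3% of the summed CPM per kb in PBS and 25.7% to 33.3% in rFGF21, and the alternative pair 42.7% to 47.6% and 61.5% to 68.1%. The classic pair was thus the larger class in each PBS library and the smaller of the main pathways in each rFGF21 library. These sums and shares are descriptions, and a share rises when another falls.

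**Figure D4:**
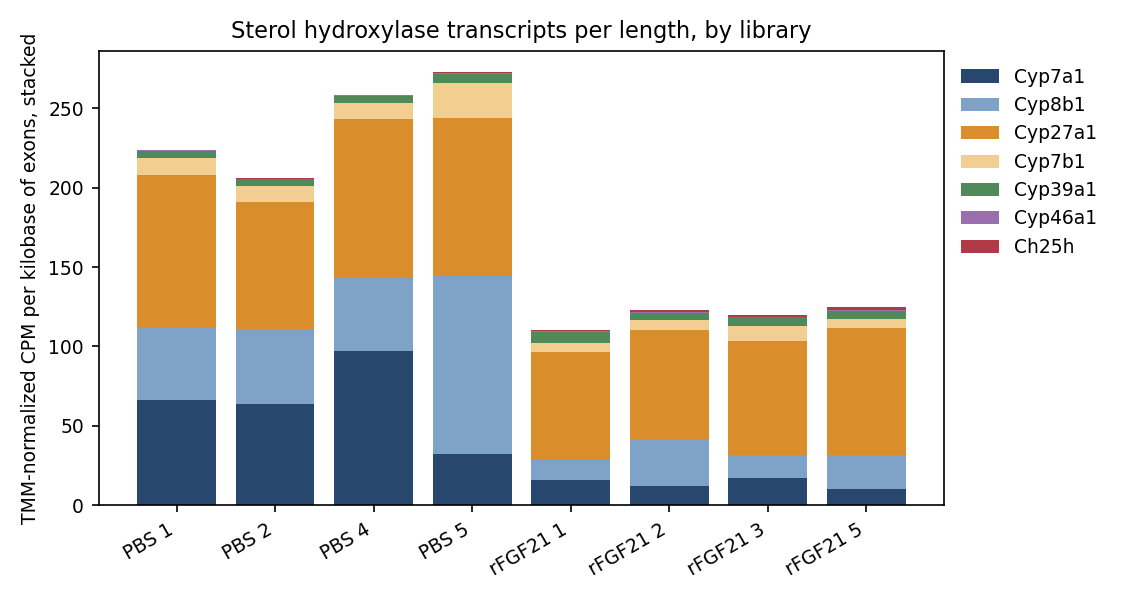
Bars stack the levels of the 7 genes in each library from 0, in TMM-normalized CPM per kb of merged exons, blue for the classic pair, orange for the alternative pair and green, purple and red for Cyp39a1, Cyp46a1 and Ch25h. The blue part falls from 111 to 144 in the PBS libraries to 28.4 to 40.9 in the rFGF21 libraries, and the orange part changes less.

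Whether 2 genes moved by different amounts was tested on their ratio of reads within each library, for 9 ratios, with a two-sided exact permutation test over the 70 regroupings of 4 against 4 libraries, whose smallest possible p is 0.0286. Per Cyp27a1 read there were 1.33, 1.53, 1.86 and 0.631 Cyp7a1 reads in PBS 1, 2, 4 and 5, and 0.448, 0.333, 0.461 and 0.248 in rFGF21 1, 2, 3 and 5. The log2 ratio of Cyp7a1 to Cyp27a1 was therefore lower in every rFGF21 library, by a difference in means of -1.78 ± 0.40 (SE). The ratio of Cyp8b1 to Cyp27a1 differed by -1.26 ± 0.40 and that of Cyp7a1 to Cyp39a1 by -2.40 ± 0.42. Ch25h gained 3.91 ± 0.67 relative to Cyp7a1 and 2.13 ± 0.33 relative to Cyp27a1. These 2 ratios had to separate the groups, because Ch25h was higher, and Cyp7a1 and Cyp27a1 lower, in every rFGF21 library. Their permutation p-values are therefore not separate support.

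In all 5 of these ratios the groups did not overlap and the exact permutation p was the smallest possible, 0.0286, or 0.0514 after Benjamini-Hochberg adjustment over the 9 ratios. None of the 9 passed an adjusted threshold of 0.05, and with only 5 of the 9 at the smallest possible p none could. The remaining 4 ratios overlapped between groups. They were Cyp7a1 to Cyp8b1, given above, Cyp7a1 to Cyp7b1 (-1.25 ± 0.62, exact p 0.143), Cyp8b1 to Cyp7b1 (-0.73 ± 0.39, exact p 0.0857) and Cyp27a1 to Cyp7b1 (0.53 ± 0.35, exact p 0.200). A difference between the change of Cyp7b1 and that of any other gene paired with it was thus not detected.

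The enzymes that act after the sterol hydroxylases mostly had lower values after rFGF21. Of 20 listed and tested, edgeR called 2 lower, where 1.67% of all genes tested were, and 0 higher. At an unadjusted p under 0.05, 12 were lower, where 9.86% of all genes were, and 0 higher, and DESeq2 called 7 lower, where it called 4.50% of all genes lower, and 0 higher. The log2 fold change was negative for 19 of the 20, with a median of -0.32. The called genes were Akr1c14, a steroid dehydrogenase (-0.91 ± 0.16 SE, adjusted p 0.0178), and Abcd3, the peroxisomal transporter of bile acid intermediates (-0.65 ± 0.14, adjusted p 0.0406), by edgeR's quasi-likelihood test. Akr1c14 lost its call in 3 of 14 other settings, without PBS 1, rFGF21 1 or rFGF21 5 (adjusted p 0.0512 to 0.0520), and Abcd3 in 8, with no filter on low counts or without any 1 library other than PBS 4 (0.0727 to 0.125). Hsd3b7, the dehydrogenase that takes the products of Cyp7a1 and Cyp7b1, had -0.45 ± 0.17 (adjusted p 0.174), and 0.0423 without PBS 4. Akr1d1, the reductase after it, had -0.54 ± 0.20 (0.165), and the late enzymes Slc27a5 and Baat, which activate and conjugate bile acids, had -0.25 ± 0.16 (0.451) and -0.30 ± 0.10 (0.128).

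Among 31 tested of 32 listed regulators of these genes and parts of the FGF receptor system, 2 were called lower and 2 higher. Of all genes tested, 1.67% were called lower and 1.15% higher. The median log2 fold change of the 31 was -0.020. Nr0b2, which encodes the co-repressor SHP, rose from 5.57 ± 2.26 to 24.9 ± 6.05 CPM (SD, n = 4), a log2 fold change of 2.17 ± 0.28 (SE) with an adjusted p of 0.00606 in edgeR's quasi-likelihood test. Nr1h4, which encodes FXR, fell by 0.60 ± 0.11 on the log2 scale (adjusted p 0.0227). Nr1i3, which encodes the nuclear receptor CAR, fell as well (-1.36 ± 0.17, adjusted p 0.00552), and Zfp36l1, an mRNA decay factor, rose (0.46 ± 0.11, adjusted p 0.0487). Calls of Nr0b2 and Nr1i3 held in all 14 other settings, whereas Nr1h4 and Zfp36l1 lost theirs in 5 and 10 of them.

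Other regulators did not pass the test. Nr5a2, which encodes the Cyp7a1 and Cyp8b1 activator LRH-1, had a log2 fold change of 0.06 ± 0.09 (SE) and the repressor gene Mafg 0.13 ± 0.09. Fgfr4 had -0.38 ± 0.12 with an adjusted p of 0.108 by edgeR and 0.0400 by DESeq2, and Klb, the co-receptor gene for FGF15 and FGF21, had -0.33 ± 0.13 with an adjusted p of 0.203 in edgeR's quasi-likelihood test. Fgf15 was not among the genes of the table by that symbol.

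**Figure D5:**
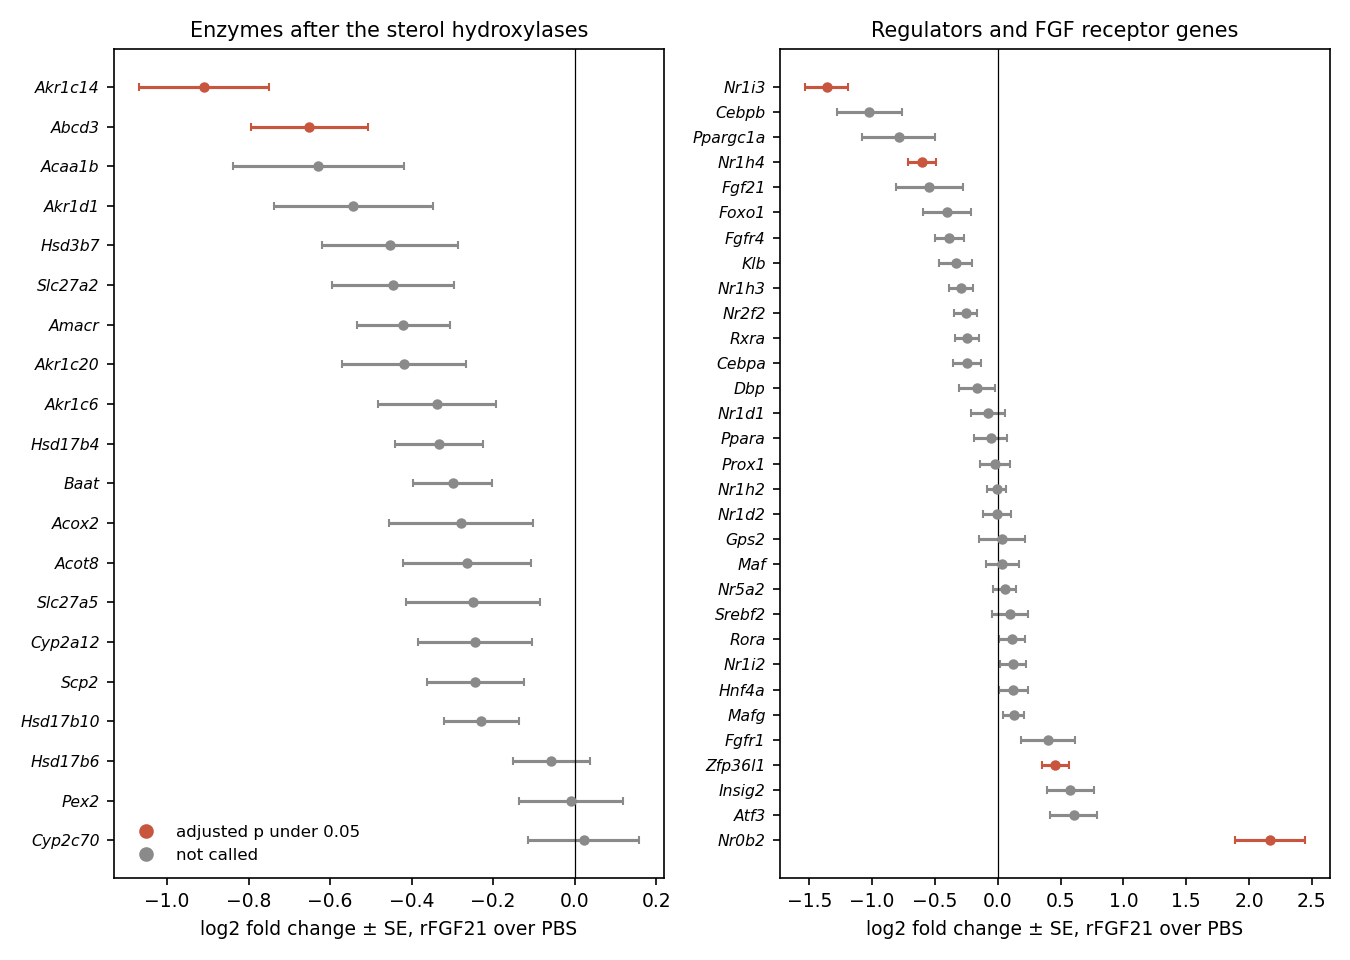
Log2 fold changes of rFGF21 over PBS ± SE (horizontal axis) are drawn for 20 enzymes after the sterol hydroxylases (left) and 31 regulators and FGF receptor genes (right), red where edgeR's adjusted p was under 0.05. On the left 19 of 20 values are below 0, and on the right Nr0b2 at 2.17 stands far above the rest.

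Zonation markers were examined beside the classic-pathway genes, since Cyp7a1 expression is known to be strongest near the central vein. Of 8 pericentral hepatocyte markers, 3 were called lower, where 1.67% of all genes tested were, and 0 higher. They were Glul (-0.72 ± 0.12 SE, adjusted p 0.0138), Cyp1a2 (-1.11 ± 0.25, adjusted p 0.0472) and Slc1a2 (-1.14 ± 0.21, adjusted p 0.0205), by edgeR's quasi-likelihood test. The sum of the 8 markers ran from 2362 to 3904 CPM in PBS and from 1685 to 2311 CPM in rFGF21. Of 8 periportal markers 0 were called by edgeR or DESeq2, with sums of 9906 to 14403 and 6607 to 11610 CPM. At an unadjusted p under 0.05 in edgeR, 3 of them were lower, where 9.86% of all genes were. DESeq2 called 5 of the pericentral markers lower, where it called 4.50% of all genes lower. With no filter on low counts edgeR called 1 of them. With 1 library left out edgeR called 0 to 4, the 0 being without rFGF21 1, where 5 were lower at an unadjusted p under 0.05. The log2 fold change was negative for 8 of the 8 pericentral and 7 of the 8 periportal markers, with medians of -0.58 and -0.46. The part of zonation in the fall of Cyp7a1 and Cyp8b1 was not tested.

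The genes most like each member were taken by Pearson's r of log2 CPM over the 8 libraries. They were sought among 12860 genes with a mean of at least 1 CPM, with predicted genes (Gm and Rik names) left out. They are given as a description because the libraries share their groups and depth. For Cyp7a1 these were Idh1 (r = 0.989), Ugt2b35 (0.984) and Acsm5 (0.982), which encode a cytosolic isocitrate dehydrogenase, a glucuronosyltransferase and a medium-chain acyl-CoA synthetase. For Cyp8b1 they were the pseudogene Ap3s1-ps2 (0.995), Farp2 (0.968) and Ube4b (0.959). For Cyp27a1 they were the pseudogene Glns-ps1 (0.974), Paox (0.956) and Chchd3 (0.953), and for Cyp7b1 they were Grsf1 (0.959), Prox1os (0.953) and Mup17 (0.952), a member of a family of near-identical copies whose counts are uncertain.

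Ch25h was closest to Plek (r = 0.987), which encodes the blood cell protein pleckstrin, Pld1 (0.986), a phospholipase D gene, and Iqgap1 (0.983), a cytoskeletal scaffold gene. Pld1 (log2 fold change 0.53 ± 0.09 SE, adjusted p 0.0149) and Iqgap1 (0.43 ± 0.08, adjusted p 0.0276) rose in edgeR's quasi-likelihood test, and Plek had 0.57 ± 0.14 (adjusted p 0.0557). These genes were picked for likeness to Ch25h over the same 8 libraries, where Ch25h differed by group. Their p-values are therefore not separate support. Cyp39a1 was closest to Rce1 (0.977), Bzw2 (0.947) and Zfp943 (0.929), and Cyp46a1 to Ccdc39 (0.974), Mllt11 (0.918) and Ager (0.911). None of these 6 genes was called.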

How the data were processed

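Total RNA (Trizol) went into Illumina TruSeq libraries, per the labels' protocols. The values used are the authors' deposited read counts, raw whole numbers for each gene, per the file headers. Bowtie 0.12.2 and mm8 are named in the submitters' processing notes, but the coordinates are GRCm38: 30177 of the 30266 gene identifiers are in GENCODE mouse release 21, and 26331 of those have identical coordinates. No source used here names the counting tool or its strand setting.

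Columns name a group and their numbers differ from those of the labels, so they were assigned to groups and keep their own numbers. The 4 count columns per group whose library also has an FPKM column were taken. The other 10 per-sample columns, 2 of counts and 8 of FPKM, were left out.

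Counts were fitted with edgeR 4.0.16 (R 4.3.3; filterByExpr, TMM, two-sided quasi-likelihood F test, no covariates) and adjusted by Benjamini-Hochberg over 18315 genes; an adjusted p under 0.05 is called. SEs follow from the F statistic. Levels per kb divide CPM by the merged exon length in GENCODE. Ratios of reads (0.5 added to each count) were tested by exact permutation. Alternatives used DESeq2 1.42.0, limma-voom (limma 3.58.1), other scalings and filters, and each library left out. The code was tested on simulated data.

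The 7 genes and the lists were chosen with earlier results of these data known, and 1 regulator first listed is not reported here. Named genes are the 7 members, up to 4 called genes with the smallest p per direction in the enzyme and the regulator list, a fixed set of 10 pathway genes, Abcb4, and the 3 genes most correlated with each member. Marker lists for other cell types gave 0 calls in edgeR, with these counts at an unadjusted p under 0.05 and in DESeq2: cholangiocyte 6 of 8 and 2 (both higher), stellate cell and fibroblast 4 of 9 and 2 (higher), lymphocyte 1 of 9 and 1 (higher), dendritic cell 1 of 6 (higher) and 0, neuron 1 of 3 tested (lower) and 0 (with no filter on low counts 1 of 6 lower and 2 higher in edgeR), hepatocyte 1 of 8 (lower) and 0, and retina 0 of 1 tested and 0. Of all 18315 genes tested, 1634 were higher and 1806 lower at an unadjusted p under 0.05 in edgeR. DESeq2 called 703 of them higher and 824 lower. With no filter on low counts, 1915 of 29484 genes were higher and 2030 lower at an unadjusted p under 0.05 in edgeR.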

Additional observations from a re-analysis of the deposited data

Results flagged for a closer look

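In the PBS group, 4 values lay far from the other libraries by Dixon's gap rule, out of 68 groups of 4 libraries examined, and chance flags about 1 in 20 groups. Cyp8b1 in PBS 5 was 217.6 CPM, against 88.97 to 91.7 CPM in the other PBS libraries. Cyp7b1 in PBS 5 was 48.9 CPM, against 20.5 to 23.5 CPM in the others. Hsd3b7 in PBS 4 was 177.3 CPM, below the 272.9 to 289.7 CPM of the others. The sum of Cyp39a1, Cyp46a1 and Ch25h in PBS 5 was 6.37 CPM per kb of merged exons, against 5.08 to 5.28 in the others.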

How the results depend on the processing

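Counts moved most with the tool, the filter and single libraries, and the cause was not tested. Over all genes the count of 516 called became 1527 with DESeq2, 198 with no filter on low counts, and 131 to 486 when each library was left out. For the 7 sterol hydroxylases the count of 3 became 5 with DESeq2, 1 without the filter, and 1 to 3 with a library left out. For the 20 enzymes the count of 2 became 7 with DESeq2, 1 without the filter, and 0 to 5 with a library left out, where the edgeR fits with 0 calls (without PBS 1, rFGF21 1 or rFGF21 5) had 9 to 11 enzymes lower at an unadjusted p under 0.05. For the regulators the count of 4 became 8 with DESeq2, and 2 to 3 with a library left out.

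Cyp7a1 kept its call in all 14 alternatives on the counts. Cyp8b1 and Ch25h each lost theirs in 5, which besides the libraries named with the results was the fit with no filter on low counts (adjusted p 0.0712 and 0.0503). Cyp27a1 and Cyp7b1 gained a call with DESeq2 only. Cyp46a1 ran from -0.50 to 0.036 with a library left out, positive without PBS 5 (0.032) or rFGF21 3 (0.036), and no other member changed sign in the alternatives on the counts. Differences of the 9 ratios moved by less than 1 SD between libraries in every alternative on the counts.

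Limma on the authors' log2 FPKM was also run: it called fewer genes than edgeR, did not call Cyp8b1, and without a filter left Cyp7a1 and Ch25h outside the threshold, Cyp7a1 narrowly. These values and ratios of FPKM are not printed, because columns of both units match the labelled samples by group only and 1 unit was kept, the counts. No paired analysis was possible because the columns carry numbers other than those of the labelled samples. Counts of 19 to 175 reads limit Ch25h, and 4 libraries per group limit every ratio test.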
